A study of Rattus norvegicus with 12 samples.

Results

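Genes of the excitatory synapse and of vesicle release, Slc17a7 (ENSRNOG00000020650), Syn1 (ENSRNOG00000010365), Snap25 (ENSRNOG00000006037), Syt1 (ENSRNOG00000006426), Camk2a (ENSRNOG00000018712) and Dlg4 (ENSRNOG00000018526), were followed through laser-microdissected area CA1 of the rat hippocampus. They were chosen by identifier, and 6 of 6 had a row among the 32662 Ensembl identifiers of the count tables. The files give identifiers only, so the symbols are those given with the identifiers when the genes were chosen. RNA was sequenced from the deep and the superficial sublayer of the CA1 pyramidal cell layer of 3 control and 3 epileptic rats. These were adult male Wistar rats, and they gave 12 libraries in 4 groups of 3. Their age is given as 45 to 50 days and their weight as 180 to 200 g, which are not taken here as values at tissue collection. Epileptic rats had received repeated 5 mg/kg kainate, a glutamate receptor agonist, until status epilepticus, for which 30 minutes are given, then 4 mg/kg diazepam. Their CA1 was collected in the chronic phase, 6 to 8 weeks after status, while control rats had received vehicle, either saline or DMSO. The labels report that later seizures were witnessed or recorded in part of the treated animals only, without saying in which. The laser cut out cell bodies of a sublayer from 20 µm sections, so each library is a mixture of the cells lying there, and lower values from fewer cells of a type and from less RNA per cell cannot be told apart.

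At an excitatory synapse, glutamate is loaded into vesicles in the presynaptic terminal, the vesicles are held near the membrane, and calcium triggers their fusion. Slc17a7 encodes VGLUT1, the transporter that fills vesicles with glutamate. Syn1 encodes synapsin I, a phosphoprotein that tethers vesicles to each other and to the cytoskeleton. Snap25 is a SNARE protein of the plasma membrane that drives fusion, and Syt1 is the vesicular calcium sensor for fast release. On the receiving side, Camk2a encodes the alpha subunit of calcium/calmodulin-dependent kinase II, which is central to long-term potentiation, and Dlg4 encodes PSD-95, the scaffold that holds glutamate receptors in the postsynaptic density. Slc17a7 and Camk2a mark excitatory cells of the hippocampus, whereas Snap25, Syt1 and Syn1 are made by neurons of all kinds.

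All 6 genes were strongly detected in all 12 libraries. The lowest count was 4273 reads, for Syn1, and the highest 43613, for Syt1, so that counting error alone was at most 1.53% of a value. The libraries held 16135358 to 25893962 gene counts, with no overlap between control (at most 19550582) and epileptic libraries (at least 20623196). The share of alignments outside annotated exons was 35.8 to 44.0% in control libraries, 43.0 and 37.7% in deep and superficial CA1 of epileptic rat 1, and 22.3 to 26.7% in the 4 libraries of epileptic rats 2 and 3. Alignments that were not unique made up 37.9 to 45.6% in these 4 libraries and 25.2 to 34.8% in the rest. Both are shares of all tallied alignments, so fits with the share outside exons do not separate it from the not-unique share. Levels below are library-size-scaled counts (CPM, counts scaled by TMM to a common library size), which are not corrected for gene length and are compared between libraries only, not between genes. In the reference gene table Timp1 and another protein-coding gene lie within Syn1, and Araf overlaps it. Snap25 shares its span with long noncoding RNAs, and Syt1 with Brcc3dc, long noncoding RNAs and pseudogenes. Since nothing used here says whether strand was counted, reads where exons of overlapping genes meet may not be told apart. The identifier with the most reads, ENSRNOG00000043866, took 8.24 to 13.0% of gene counts in control and 11.0 to 22.8% in epileptic libraries.

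Slc17a7 was higher in superficial than in deep CA1, in controls and in epileptic rats alike. In control rats 1, 2 and 3 it had 1350, 1337 and 1212 CPM in deep and 1681, 1761 and 1482 CPM in superficial libraries. The superficial library was the higher one in each control rat. The fitted superficial-to-deep ratio in controls was 1.26 (95% interval 1.16 to 1.38; log2 fold change 0.34, SE 0.06, adjusted p = 0.002631), where p was adjusted over all identifiers tested and values under 0.05 passed. In epileptic rats 1, 2 and 3 the deep libraries had 1377, 1366 and 963.8 CPM and the superficial ones 1897, 1599 and 1037 CPM. Rat 3 was low in both sublayers, and its superficial library lay below the deep libraries of the other two epileptic rats. Within each of these rats the superficial library was nevertheless the higher one, and the fitted ratio was 1.20 (95% interval 1.10 to 1.31; log2 fold change 0.27, SE 0.06, adjusted p = 0.0105). The log2 difference within a rat ran from 0.11 in epileptic rat 3 to 0.46 in epileptic rat 1, and it was positive in 6 of 6 rats. Over all identifiers, 11.0% were higher in superficial CA1 in 6 of 6 rats and 10.5% higher in deep CA1.

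The ratio of Slc17a7 to another gene of the same library does not depend on how libraries are scaled. Slc17a7 over Camk2a was higher in the superficial library of 6 of 6 rats, by 0.37 ± 0.08 on the log2 scale (SD, n = 6). The corresponding differences were 0.27 ± 0.05 over Dlg4, 0.27 ± 0.11 over Syt1 and 0.18 ± 0.06 over Syn1, each positive in 6 of 6 rats. Over Snap25 the difference was 0.19 ± 0.14 and positive in 5 of 6 rats, with −0.03 as the lowest value. Set against each of the other 5 genes, Slc17a7 leaned to the superficial side on average. This follows from Slc17a7 having the largest sublayer difference of these genes. The ratios also share Slc17a7 as numerator, so they are no separate support for that difference.

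The sequence just before the start of 3 of these genes is shown so that the gene with the clearest sublayer difference (Slc17a7), a gene of the release machinery with a smaller one (Syn1) and a postsynaptic gene whose sublayer difference did not pass (Dlg4) can be read side by side. The letters are the 250 bases before the annotated start on the plus strand, from RefSeq, assembly GRCr8, which is not the build used for the counts (Rnor_6.0): Slc17a7 chr1:104785955-104786204, Syn1 chrX:3725495-3725744 and Dlg4 chr10:55239534-55239783. Capitals mark matches, on either strand, to the cAMP response element TGACGTCA or to the GC box GGGCGG. Adjacent matches of the GC box can overlap.
Slc17a7: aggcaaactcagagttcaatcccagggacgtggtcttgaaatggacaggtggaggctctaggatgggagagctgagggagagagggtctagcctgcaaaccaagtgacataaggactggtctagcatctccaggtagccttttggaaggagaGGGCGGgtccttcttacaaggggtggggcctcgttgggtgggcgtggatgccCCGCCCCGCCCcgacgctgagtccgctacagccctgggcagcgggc
Syn1: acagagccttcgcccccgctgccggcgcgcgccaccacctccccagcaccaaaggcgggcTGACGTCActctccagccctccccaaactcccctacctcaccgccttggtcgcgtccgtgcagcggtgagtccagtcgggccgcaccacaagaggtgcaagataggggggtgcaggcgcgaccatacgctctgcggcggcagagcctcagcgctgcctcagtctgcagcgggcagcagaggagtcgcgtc
Dlg4: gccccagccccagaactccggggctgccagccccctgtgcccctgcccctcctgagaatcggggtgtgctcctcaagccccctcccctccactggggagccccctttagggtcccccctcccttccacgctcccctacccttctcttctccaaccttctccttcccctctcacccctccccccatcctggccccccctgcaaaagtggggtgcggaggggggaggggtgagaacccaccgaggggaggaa
Of the 6 genes, 5 had a promoter entry, all but Snap25. The Slc17a7 window held 3 GC box matches and no cAMP response element. The Syn1 window held 1 cAMP response element, whose last base lies 183 bases before the start, and no GC box. The Dlg4 window, at 69.2% G and C, held neither, nor did that of Camk2a, while the Syt1 window held 3 GC boxes. Among 33469 promoter windows of this length, 1.59% held the cAMP response element and 30.5% the GC box. These matches describe letters and were not tested against the counts.

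Syn1 and Snap25 also leaned to the superficial side, by smaller amounts. Syn1 had 272.4, 237.2 and 307.8 CPM in deep and 290.1, 280.7 and 324.2 CPM in superficial CA1 of control rats 1, 2 and 3. In epileptic rats 1, 2 and 3 it had 275.2, 269.1 and 230.5 CPM in deep and 324.7, 296.9 and 224.2 CPM in superficial CA1. The superficial library was the higher one in 5 of 6 rats, all but epileptic rat 3, although the ranges of the sublayers overlapped in both conditions. The mean ratio over the 6 rats was 1.09 (95% interval 1.03 to 1.16; log2 fold change 0.13, SE 0.04, adjusted p = 0.04126). This call was lost in 8 of 11 alternative fits, among them DESeq2 (0.12, adjusted p = 0.06504), the fit without a term for each rat (adjusted p = 0.5986), the one with the share of alignments outside exons (0.05, adjusted p = 0.412) and those without any 1 rat other than epileptic rat 3.

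Snap25, the membrane SNARE, varied little over the 12 libraries. It had 1107, 953.0 and 1039 CPM in deep and 1225, 1028 and 1140 CPM in superficial CA1 of control rats 1, 2 and 3. Epileptic rats 1, 2 and 3 had 1132, 1061 and 918.1 CPM in deep and 1205, 1096 and 1006 CPM in superficial CA1. The ranges of the sublayers overlapped in both conditions, but the superficial library was higher in 6 of 6 rats, by 0.05 to 0.15 on the log2 scale. The mean ratio was 1.08 (95% interval 1.03 to 1.13; log2 fold change 0.11, SE 0.03, adjusted p = 0.02472). Within controls neither gene passed (adjusted p = 0.1704 for Syn1 and 0.09505 for Snap25), nor within epileptic rats (adjusted p = 0.2277 and 0.2293). Snap25 did pass within controls when the 6 control libraries were fitted alone (0.12, adjusted p = 0.03285), without epileptic rat 1 (0.13, adjusted p = 0.04528) or with the share of alignments outside exons in the fit (0.15, adjusted p = 0.04808), and Syn1 passed within epileptic rats without epileptic rat 3 (0.19, adjusted p = 0.03396).

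Syt1, the calcium sensor, did not pass a sublayer test. In control rats 1, 2 and 3 it had 1921, 1836 and 1782 CPM in deep and 2048, 1913 and 1915 CPM in superficial CA1. The superficial value was the higher one in 3 of 3 control rats, with a fitted ratio of 1.06 (95% interval 0.99 to 1.13; adjusted p = 0.2777). In epileptic rats 1, 2 and 3 it had 1995, 1572 and 1391 CPM in deep and 2027, 1548 and 1346 CPM in superficial CA1. There the sublayers of a rat lay close together while the rats stood far apart, and the fitted ratio was 0.99 (95% interval 0.93 to 1.06; adjusted p = 0.8641).

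Neither postsynaptic gene passed a sublayer test in the fit without covariates. Camk2a had 1286, 1198 and 1399 CPM in deep and 1205, 1305 and 1272 CPM in superficial CA1 of control rats 1, 2 and 3. In epileptic rats 1, 2 and 3 it had 1132, 1104 and 1307 CPM in deep and 1183, 1086 and 1045 CPM in superficial CA1. The superficial library was higher in 2 of 6 rats, and the mean ratio was 0.96 (95% interval 0.89 to 1.03; adjusted p = 0.3732). Dlg4 had 547.4, 532.5 and 594.7 CPM in deep and 550.2, 599.8 and 584.9 CPM in superficial CA1 of control rats 1, 2 and 3. It had 414.6, 479.3 and 533.3 CPM in deep and 488.6, 480.5 and 461.0 CPM in superficial CA1 of epileptic rats 1, 2 and 3. Its sublayer difference went in opposite directions in epileptic rats 1 and 3 (0.24 and −0.21 on the log2 scale), and the mean ratio was 1.02 (95% interval 0.95 to 1.10; adjusted p = 0.7008).

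**Figure D1:**
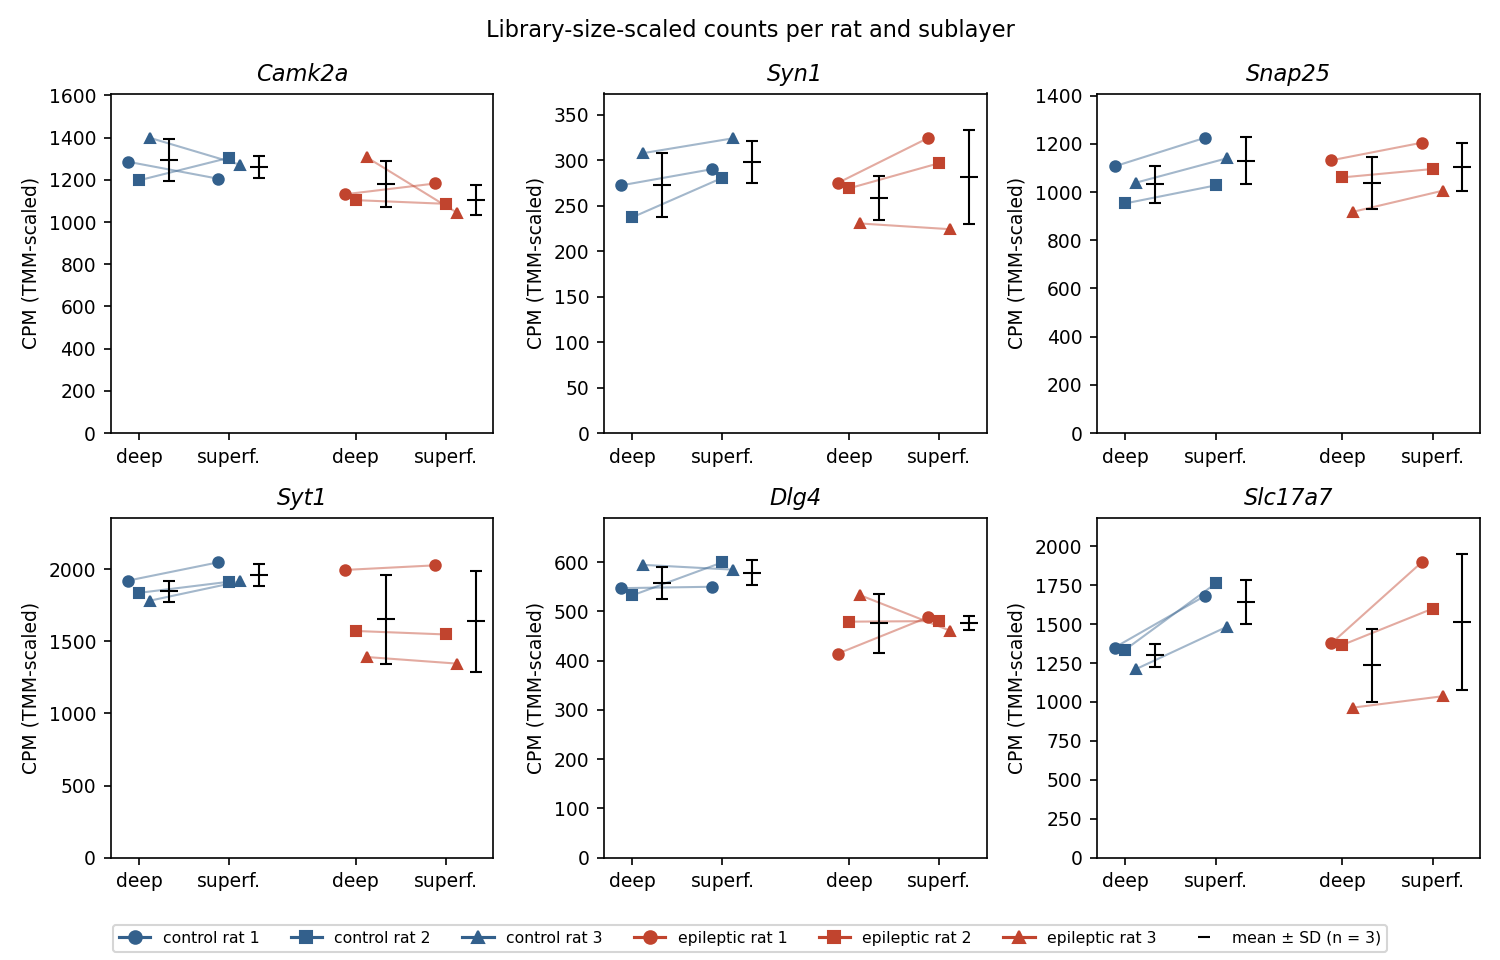
Library-size-scaled counts (CPM, vertical axis from 0) of each gene in deep and superficial CA1; a line joins the 2 libraries of a rat, blue for control and red for epileptic, and black bars give the mean ± SD of 3 rats. Slc17a7 lines slope upward in all 6 rats, and in epileptic rat 3 (triangles) Slc17a7 and Syt1 lie lowest.

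Counted over the genes, 1 of 6 (Slc17a7) passed in controls and was higher in superficial CA1, where 8.44% of all 14791 identifiers passed and 4.26% did so in that direction. In epileptic rats 1 of 6 passed, again Slc17a7, against 10.03% of all identifiers and 5.04% in that direction. For the mean of the 6 rats 3 of 6 passed, Slc17a7, Syn1 and Snap25, all higher in superficial CA1, against 20.4% of all identifiers and 10.4% in that direction, and 0 of 6 passed as higher in deep CA1, where 9.97% of all identifiers did. The median log2 fold change of the 6 genes was 0.11 in controls, 0.05 in epileptic rats and 0.07 for the mean, beside 0.01, 0.02 and 0.01 over all identifiers. These values come from edgeR's quasi-likelihood test with a term for each rat, and without that term 0 of 6 passed in controls, in epileptic rats or over the 6 rats (Slc17a7 0.34, 0.29 and 0.31, adjusted p = 0.7633, 0.8092 and 0.3129). Without it 0.0338%, 0.0338% and 1.79% of all identifiers passed in these comparisons.

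**Figure D2:**
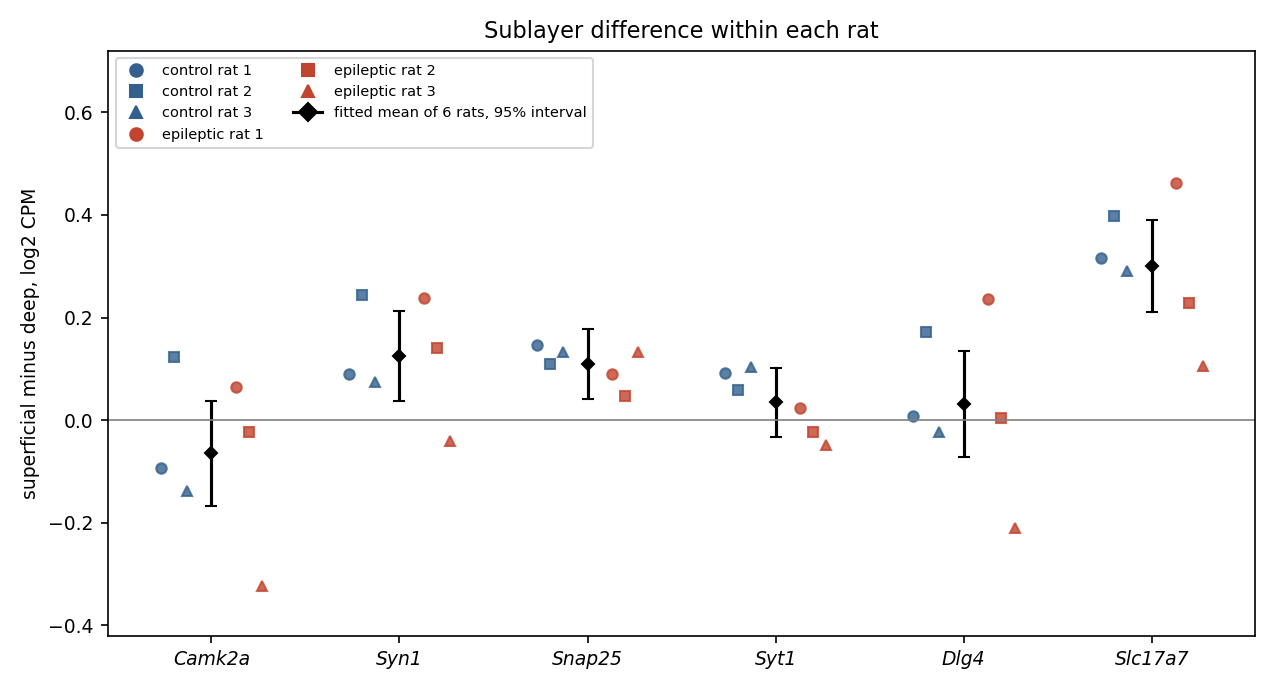
Superficial minus deep log2 CPM within each rat (coloured symbols, 3 control and 3 epileptic rats) with the fitted mean of the 6 rats and its 95% interval (black). Slc17a7 lies above 0 in all rats and its interval runs from 0.21 to 0.39, while the rats of Camk2a and Dlg4 fall on both sides of 0.

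The share of alignments outside exons was lower in the superficial library of 5 of 6 rats, with superficial-minus-deep differences from −5.24 to 3.25 percentage points. When that share entered the fit, an alternative chosen after seeing the data, the Slc17a7 value in controls was 0.21 (adjusted p = 0.005006), 0.22 in epileptic rats (adjusted p = 7.792e-05) and 0.21 for the mean of the 6 rats (adjusted p = 2.155e-05). In the same fit Snap25 stood at 0.12 for the mean (adjusted p = 0.007372). Camk2a there passed as higher in deep CA1, at −0.19 in controls (adjusted p = 0.01687), −0.15 in epileptic rats (adjusted p = 0.00837) and −0.17 for the mean (adjusted p = 0.0008234). Of all identifiers, 5.71% passed in controls, 17.0% in epileptic rats and 14.1% for the mean in this fit. Leaving out epileptic rat 1 or 2 ended the Slc17a7 call in epileptic rats, at 0.17 (adjusted p = 0.06065) and 0.28 (adjusted p = 0.06234), and fitting the 6 epileptic libraries alone gave 0.25 (adjusted p = 0.05499). The Snap25 call for the mean of the 6 rats was lost without control rat 1, 2 or 3 or epileptic rat 2 (adjusted p from 0.05241 to 0.1126).

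Whether the sublayer difference itself was altered in epileptic rats was tested directly. With edgeR 0 of 6 genes and 0% of all 14791 identifiers passed, and 0 of 6 genes lay at an unadjusted p below 0.05 beside 6.60% of all identifiers. DESeq2 also passed 0 of 6, with 0.0135% of all identifiers. The differences between the 2 log2 fold changes were −0.07 for Slc17a7 (95% interval −0.25 to 0.11), −0.02 for Syn1 (−0.20 to 0.15), −0.04 for Snap25 (−0.18 to 0.10), −0.10 for Syt1 (−0.24 to 0.03), −0.06 for Camk2a (−0.26 to 0.15) and −0.04 for Dlg4 (−0.25 to 0.16). All 6 were below 0, while 48.5% of all identifiers were above it. Without epileptic rat 3 only 2 of 6 were below 0, with a median of 0.03, and without control rat 2 it was 3 of 6, with a median of −0.01. With these intervals the difference is not shown to be the same in both conditions.

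Between epileptic and control rats, none of the 6 genes passed in deep or superficial CA1 with edgeR's quasi-likelihood test. In deep CA1 the test passed 0 of 6 genes and 0% of all 14261 identifiers, and 0 of 6 genes lay at an unadjusted p below 0.05 beside 13.7% of all identifiers. With the replicate number as a block 239 deep identifiers (1.68%) passed, again with 0 of 6 of these genes. The deep CPM of control and epileptic rats overlapped for 6 of 6 genes, whereas they did not for 18.7% of all identifiers, with the epileptic rats below for 9.75%. In superficial CA1 it passed 0 of 6 genes and 0.0140% of 14321 identifiers, with 1 of 6 (Dlg4) and 18.9% at an unadjusted p below 0.05. DESeq2 passed 0 of 6 genes and 2.64% of all identifiers in deep CA1, and 1 of 6 genes (Dlg4) and 6.18% of all identifiers in superficial CA1. The median log2 fold change of the 6 genes was −0.10 in deep and −0.14 in superficial CA1, beside 0.00093 and 0.00684 over all identifiers. Of the values, 5 of 6 and 6 of 6 were negative, while 50.2 and 51.0% of all identifiers were positive. Without epileptic rat 3, 3 of 6 were negative in each sublayer, with medians of −0.02 and −0.05. With the share outside exons in the fit it was 2 of 6 in each, with medians of 0.09 and 0.11. In every other alternative fit at least 4 of 6 were negative.

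Dlg4, the PSD-95 gene, had the lowest adjusted p among the 6. In superficial CA1 it was 578.3 ± 25.5 CPM in controls against 476.7 ± 14.2 CPM in epileptic rats (SD, n = 3 each), and the groups did not overlap. Groups did not overlap for 24.2% of all identifiers there, and for 13.0% with the epileptic rats below. The fitted ratio was 0.83 (95% interval 0.74 to 0.95; log2 fold change −0.26, SE 0.08), but it did not pass over all identifiers (adjusted p = 0.1835). DESeq2 gave the same size and a pass (log2 fold change −0.26, adjusted p = 0.0114).

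In deep CA1 Dlg4 was 558.2 ± 32.5 CPM in controls against 475.7 ± 59.4 CPM in epileptic rats (SD, n = 3 each). The groups touched, because epileptic rat 3 at 533.3 CPM stood just above control rat 2 at 532.5 CPM, and the ratio was 0.85 (95% interval 0.72 to 1.02; adjusted p = 0.4067). With both libraries of a rat summed the ratio was 0.84 (95% interval 0.74 to 0.95; adjusted p = 0.2037 with edgeR, 0.0253 with DESeq2, which passed 5.97% of all identifiers), where 0 of 6 genes and 0.0325% of 15398 identifiers passed with edgeR, and 1 of 6 (Dlg4) and 18.1% lay at an unadjusted p below 0.05. The Dlg4 value was negative in 11 of 11 alternative fits of each of these 3 comparisons, and when the share outside exons entered the fit it was −0.42 in deep, −0.27 in superficial and −0.33 in summed CA1, none of which passed (adjusted p = 0.1664, 0.7062 and 0.2675). Its size in deep CA1 moved from −0.23 to −0.13 without epileptic rat 1 (adjusted p = 0.4144).

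Camk2a had a smaller difference in the same direction. In superficial CA1 it was 1261 ± 50.7 CPM in controls against 1105 ± 70.8 CPM in epileptic rats (SD, n = 3 each), again without overlap. Camk2a and Dlg4 were the only genes of the 6 without overlap there, beside 24.2% of all identifiers, and 13.0% with the epileptic rats below. The Camk2a ratio was 0.89 (95% interval 0.77 to 1.02; adjusted p = 0.31). In deep CA1 Camk2a averaged 1294 ± 101 CPM in controls and 1181 ± 110.3 CPM in epileptic rats (SD, n = 3 each). These deep groups overlapped, as epileptic rat 3 lay above control rats 1 and 2, and the ratio was 0.91 (95% interval 0.78 to 1.08; adjusted p = 0.6201). The deep log2 value of −0.13 became −0.072 without control rat 3, −0.083 without epileptic rat 2 and −0.21 without epileptic rat 3. Averaged over both sublayers of a rat, Camk2a and Dlg4 were lower in every epileptic than in every control rat (−0.16 and −0.26 on the log2 scale), with p = 0.1 in an exact two-sided permutation test, the lowest p possible with 3 rats a group. Per-rat means of the conditions did not overlap for 23.7% of all identifiers, and for 13.2% with the epileptic rats below. The other 4 genes had p = 0.4 to 0.8 in the same exact permutation test, and p-values adjusted over these 6 tests were 0.3 for Camk2a and Dlg4 and 0.8 for the rest (exact permutation).

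For the 4 release genes the SD between epileptic rats exceeded the difference between the group means in both sublayers. Syt1 averaged 1959 ± 77.1 CPM in control and 1640 ± 350 CPM in epileptic superficial CA1, and 1846 ± 70.3 and 1653 ± 310 CPM in deep CA1 (SD, n = 3 each). Epileptic rat 1 lay within or above the control range in both sublayers, and rats 2 and 3 lay below every control library. The fitted ratio was 0.85 in superficial (95% interval 0.67 to 1.06; adjusted p = 0.3819) and 0.90 in deep CA1 (95% interval 0.73 to 1.10; adjusted p = 0.636). Without epileptic rat 1 the superficial value was −0.41 (adjusted p = 0.03487) and the summed value −0.36 (adjusted p = 0.04451), the only fits that passed Syt1; 9.96% and 9.05% of all identifiers passed in these fits. Without epileptic rat 3 the Syt1 values were instead −0.13 in superficial and −0.091 in summed CA1, and in deep CA1, from −0.16 with all rats, −0.31 without rat 1 and −0.048 without rat 3. Rats 2 and 3 are also the rats with the low share of alignments outside exons, and with that share in the fit the Syt1 value was 0.07 in superficial and 0.11 in deep CA1; its part in the difference was not tested further.

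Slc17a7 averaged 1642 ± 144 CPM in superficial control, 1511 ± 436 in superficial epileptic, 1299 ± 76.1 in deep control and 1235 ± 235.3 CPM in deep epileptic libraries (SD, n = 3 each). In this order from high to low, each neighbouring pair overlapped. The epileptic-to-control ratio was 0.93 in superficial (95% interval 0.67 to 1.29; adjusted p = 0.802) and 0.95 in deep CA1 (95% interval 0.76 to 1.19; adjusted p = 0.8616). Without epileptic rat 3 the sign changed, to 0.10 and 0.08 on the log2 scale. Syn1 and Snap25 had ratios of 0.96 and 0.99 in superficial and 0.95 and 1.01 in deep CA1, with 95% intervals from 0.77 at the lowest to 1.19 at the highest, and adjusted p from 0.8131 to 0.9827. For Syn1, Snap25, Syt1 and Slc17a7 the fit that included the share outside exons gave values above 0 in both sublayers, and none of them passed.

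**Figure D3:**
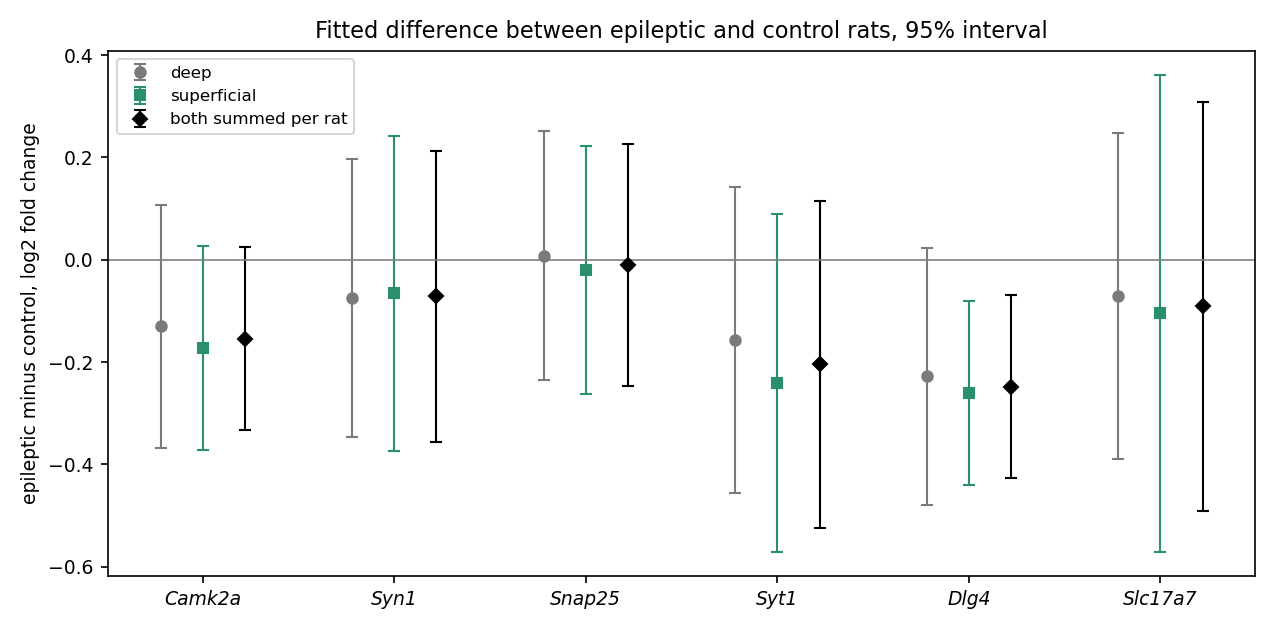
Fitted log2 difference between epileptic and control rats for each gene in deep CA1 (grey), superficial CA1 (green) and both libraries of a rat summed (black), with 95% intervals, 3 rats against 3. Most values lie below 0; the Dlg4 intervals in superficial and summed CA1 end below 0, although neither passed after adjustment over all identifiers.

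Among themselves the 6 genes did not form a single profile. Each gene was compared with all other identifiers by the root mean square difference of log2 CPM over the 12 libraries, after each was centred on its own mean. Camk2a and Dlg4 lay 0.09 apart, which placed Dlg4 at rank 76 of 14790 from Camk2a and Camk2a at rank 48 from Dlg4. Syn1 and Snap25 lay 0.11 apart (rank 101 from Syn1 and 565 from Snap25). From Camk2a, Slc17a7 was farthest at 0.31, rank 9600, beyond the median distance of 0.24 to all identifiers. The mean profile of the 6 genes was nearest to ENSRNOG00000005985 and ENSRNOG00000016196, at 0.038 and 0.040 over 14785 other identifiers. These distances share libraries, scaling and the rats' own levels, and small ones also arise between any genes that vary little.

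The spread over the 12 libraries was smallest for Snap25 and Camk2a (SD 0.13 log2 each) and largest for Slc17a7 (0.29). Of the 487 identifiers with a mean level at least that of Syn1, 92.8% varied less than Slc17a7 and 76.8% less than Syt1. From the lowest to the highest library Slc17a7 spanned 1.45-fold in controls and 1.97-fold in epileptic rats, and Syt1 1.149-fold and 1.51-fold. In epileptic rat 3 the release genes and the postsynaptic genes parted in deep CA1. Its deep library lay at −0.53 from the mean for Slc17a7, −0.34 for Syt1, −0.26 for Syn1 and −0.22 for Snap25, but at 0.12 for Camk2a and 0.04 for Dlg4. In its superficial library all 6 were below their means, from −0.09 for Snap25 to −0.43 for Slc17a7. Deep CA1 of epileptic rat 1 had the reverse order, with Dlg4 at −0.32 and Camk2a at −0.09. The release genes there lay from −0.02 for Slc17a7 to 0.18 for Syt1.

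**Figure D4:**
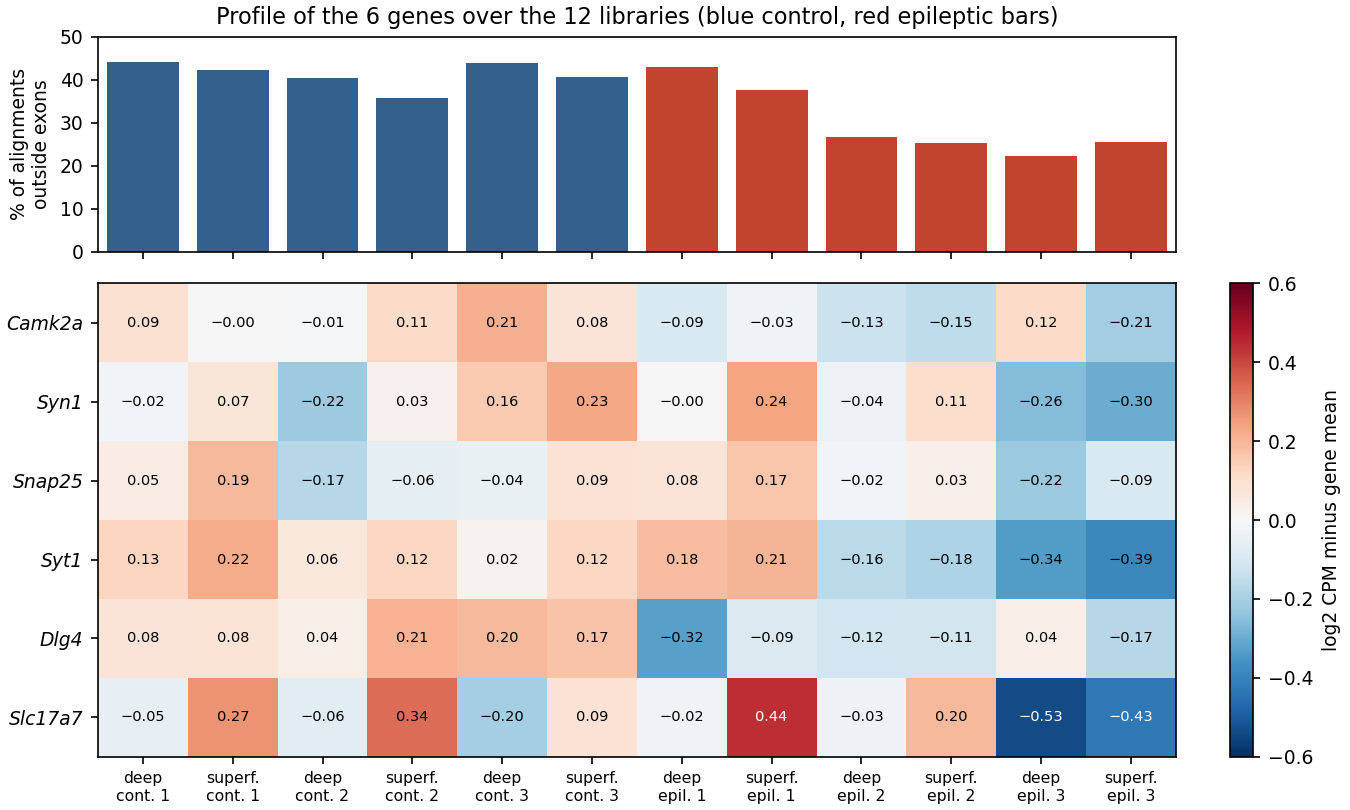
Log2 CPM of each gene minus its mean over the 12 libraries (colour and printed values, red above and blue below), with the share of alignments outside annotated exons of each library as bars above (percent, from 0). Epileptic rats 2 and 3 have the low shares of 22.3 to 26.7%, and rat 3 has the lowest Slc17a7 and Syt1 values.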

How the data were processed

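RNA-seq libraries (12) came from both CA1 sublayers of 6 rats, 3 per condition. The values are raw gene counts as deposited by the authors, 1 table per library, with no normalization. Tools named in the submitters' processing notes are STAR 2.5.0c, HTSeq 0.6.1, FastQC 0.11.3 and SAMtools 0.1.19, with Rnor_6.0 as the build; settings and strand use are not given in the sources used here. The 5 summary tallies stayed out of library sizes and tests; gene counts made up 28.6 to 35.1% of all tallied alignments.

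Tests used edgeR 4.0.16 (R 4.3.3): filterByExpr by group (minimum count 10, minimum total 15), TMM, the robust quasi-likelihood test and Benjamini-Hochberg adjustment over all identifiers tested, threshold 0.05. Sublayers were compared in 1 fit of 12 libraries with a term for each rat, and epilepsy in 6 libraries per sublayer and in sums per rat. An SE is the absolute log2 fold change over the square root of F, and 95% intervals use it with the test's degrees of freedom. CPM and log2 CPM (prior count 2) were computed here. DESeq2 1.42.0, RLE size factors, no low-count filter, blocks, a covariate and leaving out each rat were alternatives. The tests were also run on simulated counts with changes planted in identifiers drawn at random. Of planted 1.5-fold changes, 73.1% were called between sublayers of controls, but 1.49% for epilepsy in deep and 0% in superficial and summed CA1. Of 2-fold changes, 79.1% were called between sublayers of controls, and 47.8, 14.9 and 20.9% for epilepsy in deep, superficial and summed CA1. The planted identifiers were of all levels, whereas each of the 6 genes lay above 96.7 to 99.8% of identifiers in mean level. The smallest planted change, 1.5-fold, was also larger than any epilepsy difference of the 6 genes. Differences as small as theirs could go uncalled, but the simulation gives no rate for these genes.

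The replicate number was taken as the rat. Deviations from group means correlated between the sublayers of 1 number in 6 of 6 cases (r = 0.316 to 0.770). Control and epileptic libraries of 1 number are different rats. They correlated at 0.104 to 0.244 in deep and 0.0025 to 0.212 in superficial CA1. In the results above the block is therefore given beside the deep result only. For superficial and summed CA1 it is given among the alternative fits at the end. No pair of replicates was a duplicate (chi-square per identifier 7.29 to 124). Epilepsy p-values therefore rest on the spread between rats.

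The members, lists and tests were chosen with earlier results of these data known. All 6 genes are named in every comparison. No table at hand pairs the identifiers with symbols (0 of 32662), so the lists of other release, postsynaptic and cell type genes, including markers of glia and interneurons, were not analysed here.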

Additional observations from a re-analysis of the deposited data

How the results depend on the processing

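Over all alternatives, 398 log2 values of the 6 genes kept their direction and their side of the threshold, 46 turned sign, 11 passed only in the alternative and 19 no longer passed. With DESeq2 the counts were 815 for sublayers in controls, 811 in epileptic rats, 1930 for the mean of the 6 rats and 2 for the difference between conditions, and 376 for epilepsy in deep, 885 in superficial and 919 in summed CA1. Without the low-count filter 1910 passed in controls, 178 for the difference between conditions, and 103, 130 and 93 for epilepsy in deep, superficial and summed CA1; RLE size factors gave 8 in deep CA1. The fit without a replicate block (no term for each rat) passed 5 in controls, 5 in epileptic rats and 265 for the mean of the 6 rats. The replicate block across conditions gave 239, 25 and 19 for epilepsy in deep, superficial and summed CA1, and changed no call for the 6 genes; each of the 6 deep libraries, and 4 of 6 superficial ones, correlated best with its own number, a hint from the data and not the design. The 6 control libraries alone passed 2375 and the 6 epileptic ones alone 727, where Dlg4 was −0.0049.

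With the share outside exons as a term, 2521 passed in epileptic rats, 31 for the difference between conditions, and 99, 5 and 21 for epilepsy in deep, superficial and summed CA1. Signs that turned in these fits were Dlg4 between sublayers (−0.12 in controls, −0.050 in epileptic rats, −0.084 for the mean) and the differences between conditions of Camk2a (0.044), Dlg4 (0.068), Syn1 (0.050) and Slc17a7 (0.014). For epilepsy in deep, superficial and summed CA1 the turned values were Slc17a7 0.12, 0.16 and 0.16, Syt1 0.11, 0.073 and 0.092, and Syn1 0.066, 0.15 and 0.13, with Snap25 at 0.17 in superficial and 0.16 in summed CA1. None of the turned values passed, and the cause was not tested.

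Leaving out 1 rat at a time gave 416 to 2071 in controls, 536 to 2217 in epileptic rats, 0 to 84 for the difference between conditions and 1760 to 4093 for the mean of the 6 rats. For epilepsy it gave 0 to 552 in deep, 0 to 1443 in superficial and 0 to 1417 in summed CA1, the highest without epileptic rat 1. The log2 values whose sign then turned, none of them passing at the turned sign, had these ranges. Between sublayers of controls Camk2a ran from −0.11 to 0.016 and Dlg4 ran from −0.0069 to 0.090. Between sublayers of epileptic rats Camk2a ran from −0.17 to 0.019 and Dlg4 ran from −0.10 to 0.12. In the difference between conditions Slc17a7 ran from −0.17 to 0.012, Syn1 ran from −0.082 to 0.056, Camk2a ran from −0.14 to 0.058 and Dlg4 ran from −0.15 to 0.070. In the mean of the 6 rats Dlg4 ran from −0.028 to 0.083. For epilepsy in deep CA1 Slc17a7 ran from −0.15 to 0.080, Syn1 ran from −0.17 to 0.020 and Snap25 ran from −0.052 to 0.088. For epilepsy in superficial CA1 Slc17a7 ran from −0.29 to 0.098, Syn1 ran from −0.17 to 0.067 and Snap25 ran from −0.090 to 0.043. For epilepsy in summed CA1 Slc17a7 ran from −0.22 to 0.090, Syn1 ran from −0.14 to 0.036 and Snap25 ran from −0.074 to 0.056. The lowest count of these genes was 4273 reads.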
